A study of Mus musculus and Rattus norvegicus with 30 samples.

Results

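The proteins of the mitochondrial ribosome are encoded in the nucleus by the Mrpl genes (large subunit) and Mrps genes (small subunit). Members were the protein-coding genes whose symbol begins with Mrpl or Mrps followed by a digit. This gave 78 of 32545 genes in the rat table and 78 of 54307 genes in the mouse tables. The rat entries carry 76 symbols, because Mrpl36 and Mrpl53 are each listed under a second identifier that held no count. All 76 rat symbols recur among the mouse members. The mouse adds Mrpl57 and Mrpl58, which the rat table lists under the older names Mrp63 and Ict1.

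The series used poly(A) RNA of cultured neonatal rat ventricular myocytes and RNA of mouse left ventricle. The rat myocytes, taken from pups aged 3 days, received siRNA against ERRalpha and ERRgamma (double knockdown, DKD) or scramble siRNA, at a typical 25 nM, and then 10 µM of the pan-ERR agonist 915 or DMSO for 24 h. The 4 rat groups, with 3 libraries each, were DKD with 915, DKD with vehicle, scramble with 915 and scramble with vehicle; the stated culture steps included pre-plating to remove fibroblasts and bromodeoxyuridine in the medium. The mice were wild type and had transverse aortic constriction (TAC) or sham surgery, followed by 6 weeks of intraperitoneal ERR agonist 332 or vehicle. There were 5 TAC + 332, 5 TAC + vehicle, 5 Sham + 332 and 3 Sham + vehicle libraries. Strain, sex and age of the mice are not given in the sources used here, and the rat labels do not say whether replicates were separate isolations, so the p-values there measure the spread between these libraries.

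The mitochondrial ribosome translates the 13 proteins that the mitochondrial genome encodes, all of them subunits of the respiratory chain or of ATP synthase. Its proteins are made in the cytosol and imported; many have counterparts in bacterial ribosomes and the others are specific to mitochondria. The ERR proteins are nuclear receptors that bind an extended AAGGTCA element and drive genes of oxidative metabolism in heart muscle, with PGC-1alpha (Ppargc1a) as a coactivator; NRF1 and the ETS factor GABP are the other regulators classically tied to nuclear genes for mitochondrial proteins.

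Promoter windows (250 bases before to 50 after the start) of 69 of the 78 mouse members were found in the RefSeq table for GRCm38.p6 and searched on both strands. The extended ERR elements TCAAGGTCA and TGAAGGTCA occurred in 0 of 69 windows, against 0.466% and 0.418% of 27025 genes with a window. Among protein-coding genes the shares were 0.377% and 0.337%. With shares this low, 69 windows would mostly hold none, so the search cannot tell whether members lack these elements. The NRF1 element (GCGCA, any base, GCGC) occurred in 13 of 69 members (18.8%), against 5.19% of all genes and 7.17% of the protein-coding ones. The ETS element CCGGAAGT occurred in 12 of 69 members (17.4%), against 4.31% of all genes and 5.69% of the protein-coding ones. The short core AAGGTCA lies within both extended ERR elements and was added to the search later. It occurred in 4 members (5.80%), in 5.38% of all genes and in 4.73% of the protein-coding ones. The windows of 4 genes, picked by hand among members that recur in the results, are shown. They are Mrpl12, among the largest falls in the knockdown, and Mrps21 and Mrpl39, which fell after TAC. The last is Mrpl47, which carries none of these letters and moved in both species. Most of these windows hold the NRF1 letters, against 13 of 69 members, so they do not stand for the members. Mrps31, Mrps23, Mrps36 and Mrps18b, which also recur, hold none of the searched letters. Capitals mark the NRF1 letters and AAGGTCA on either strand.
Mrpl12, chr11:120484387-120484686, plus strand: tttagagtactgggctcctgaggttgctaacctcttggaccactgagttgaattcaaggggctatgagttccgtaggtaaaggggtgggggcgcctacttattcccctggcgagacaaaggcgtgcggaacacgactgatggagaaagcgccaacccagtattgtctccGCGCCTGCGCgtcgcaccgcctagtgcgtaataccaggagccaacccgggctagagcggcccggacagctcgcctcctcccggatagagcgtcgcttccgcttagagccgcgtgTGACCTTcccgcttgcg
Mrps21, chr3:95871465-95871764, minus strand: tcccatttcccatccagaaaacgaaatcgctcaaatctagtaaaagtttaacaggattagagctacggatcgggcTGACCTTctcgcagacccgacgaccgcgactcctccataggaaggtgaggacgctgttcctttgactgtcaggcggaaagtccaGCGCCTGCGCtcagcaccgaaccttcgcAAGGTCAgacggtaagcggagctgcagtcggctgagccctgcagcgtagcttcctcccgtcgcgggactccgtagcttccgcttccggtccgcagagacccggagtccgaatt
Mrpl39, chr16:84735195-84735494, minus strand: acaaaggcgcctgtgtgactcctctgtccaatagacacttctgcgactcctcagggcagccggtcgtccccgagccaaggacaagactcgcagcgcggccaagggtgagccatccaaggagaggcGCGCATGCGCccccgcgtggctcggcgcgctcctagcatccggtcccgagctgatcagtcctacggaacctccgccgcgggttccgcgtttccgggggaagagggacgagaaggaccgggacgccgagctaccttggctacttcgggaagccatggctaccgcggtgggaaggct
Mrpl47, chr3:32736706-32737005, minus strand: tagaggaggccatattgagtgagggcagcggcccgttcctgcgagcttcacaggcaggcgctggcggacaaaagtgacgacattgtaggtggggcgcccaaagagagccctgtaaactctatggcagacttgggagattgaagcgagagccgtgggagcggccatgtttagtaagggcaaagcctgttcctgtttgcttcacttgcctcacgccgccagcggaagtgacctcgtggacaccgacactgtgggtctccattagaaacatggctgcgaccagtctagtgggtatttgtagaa
In the Mrpl12 window the NRF1 letters began 81 bases before the start, in the Mrps21 window 91 bases before it, and in the Mrpl39 window, where they read the same on both strands, 125 bases before it. Mrps21 also held AAGGTCA at 175 and at 63 bases before the start, on opposite strands. In the knockdown with vehicle, the tested rat members whose mouse window held the NRF1 letters had a median log2 change of −0.18 (6 of 12 lower, 2 higher), and those without had −0.26 (28 of 55 lower, 1 higher); a match in this mouse window says nothing of binding in the rat.

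Rat libraries held 12013379 to 18315341 counts over genes and mouse libraries 11375894 to 16599899, of which members took 0.227 to 0.339% and 0.253 to 0.375%. Per length, the median member in scramble vehicle myocytes stood at 26.6 FPKM, with Mrpl33 highest at 178 FPKM, and in Sham + vehicle hearts at 19.0 TPM, with Mrps21 highest at 384 TPM. Levels are given as CPM, the counts of a gene in every 1000000 of the library after scaling. The targeted receptor Esrra stood at 14.0, 21.9 and 16.1 CPM in DKD vehicle myocytes, against 199, 178 and 169 CPM in scramble vehicle myocytes, and Esrrg at 18.7, 18.1 and 17.5 CPM against 131, 130 and 131 CPM. Both knockdown groups were low for both targets and no library went against its label. Esrrb also fell; the group labels do not name it as a target, although the protocol lists siRNAs against Esrrb and E2f1 among those used (log2 −1.88 in vehicle, edgeR adjusted p 1.1e-05). The mouse libraries fall into 2 sequencing sets by sample number and lane in the deposited names; replicates 1 to 3 of each group form the first set and replicates 4 and 5 the second, which holds no Sham + vehicle library. Members were higher in the second set (58 of 78 higher and 1 lower), where 34.4% of all genes were called in either direction. The median member was at log2 0.28, against 0.01 over all genes, so the mouse fit carried a term for the set. In bulk RNA, fewer myocytes and less RNA per myocyte cannot be told apart.

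The first comparison asked how the members depended on ERR. In vehicle-treated myocytes the knockdown lowered mitochondrial ribosomal protein genes broadly: 39 of 76 tested members fell and 3 rose at an adjusted p of 0.05 (edgeR quasi-likelihood), where 20.4% of the 15181 tested genes were called, 12.7% lower and 7.75% higher. The median member changed by −0.25 on the log2 scale, against 0.01 over all genes, and 68 of 76 estimates were negative. Both subunits took part, with 16 of 26 small-subunit genes lower and 1 higher, and 22 of 49 large-subunit genes lower and 2 higher; Mrps36 is counted in neither. Summed over all members the level was 2247 ± 32.7 CPM in DKD vehicle cells and 2655 ± 124 CPM in scramble vehicle cells (SD, n = 3 each). Scaling by library totals alone left 22 members called (3 higher, 19 lower), and moved the median of all genes to 0.11 and that of members to −0.15. That scaling called 4206 of the 15181 genes, against 3099 in the main fit. The share of members called in either direction was then near that of all genes. In the main scaling 22 members were called without scramble vehicle replicate 1, where 2338 of all genes were. Without DKD vehicle replicate 3, 27 members were called, where 2393 of all genes were.

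Mrps36 fell furthest among the called members; despite its name it is known as a subunit of the 2-oxoglutarate dehydrogenase complex (KGD4) and not of the ribosome. It stood at 16.4, 13.9 and 13.4 CPM in DKD vehicle cells, against 43.7, 32.2 and 36.0 CPM in scramble vehicle cells, with no overlap (log2 −1.35, SE 0.12, adjusted p 9.76e-09). It was the only called member with a change of at least 2-fold. Mrpl12 (chr10:109658032-109662535, rn6), the stalk protein that recruits translation factors and that binds the mitochondrial RNA polymerase in human cells, stood at 57.1, 57.4 and 53.1 CPM in DKD vehicle cells, against 104, 83.8 and 94.8 CPM in scramble vehicle cells. All 3 knockdown libraries lay below all 3 scramble libraries (log2 −0.76, SE 0.07, adjusted p 3.89e-09). Mrpl15 (chr5:14609674-14620965), a large-subunit protein with a bacterial counterpart, had 48.5, 48.2 and 46.1 CPM in DKD vehicle cells, against 79.2, 76.4 and 78.4 CPM in scramble vehicle cells (log2 −0.71, SE 0.06, adjusted p 8.96e-10), and its replicates differed by less than 3 CPM within either group. Mrpl40, a mitochondrion-specific large-subunit protein, fell by 0.74 on the log2 scale. The fall was 0.58 for mrpl11 (lower case in the rat table), at the base of the stalk. For Mrpl3, a protein near the peptidyl transferase centre that is mutated in human cardiomyopathy, it was 0.56. The largest falls were named only where the ranges of the groups did not overlap, so that trait was set by the rule. Ranges were apart for 51 of 76 members and 36.1% of all tested genes.

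The knockdown raised 3 members. Mrps6 (chr11:32211115-32263899), the counterpart of bacterial S6, stood at 69.8, 71.3 and 73.8 CPM in DKD vehicle cells, against 51.5, 40.8 and 47.3 CPM in scramble vehicle cells (log2 0.62, SE 0.08, adjusted p 9.56e-07), with every knockdown library above every scramble library. The rises of mrpl9 (0.23, adjusted p 0.0219) and Mrpl17 (0.16, adjusted p 0.033) were smaller. Mrpl17 lost its call in all 6 fits that left out 1 library of the comparison, and mrpl9 in 4 of them. Of the members named whatever their values, Mrps18b (log2 −0.32), Mrps22 (−0.30), Mrps34 (−0.30) and Mrpl44 (−0.29) also fell. Mrps22, Mrps34 and Mrpl44 lost their calls under library totals alone. They also lost them in 1, 2 and 3 of the 6 fits that left out 1 library. Mrps12 (0.06, interval −0.20 to 0.32), Mrps18c (−0.05), Mrps30 (−0.11) and Mrps18a (−0.19) were not called. Mrps18a, Mrps18b and Mrps18c are paralogs of bacterial S18, and Mrps18a and Mrps30 lie in the large subunit of the mammalian ribosome.

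**Figure D1:**
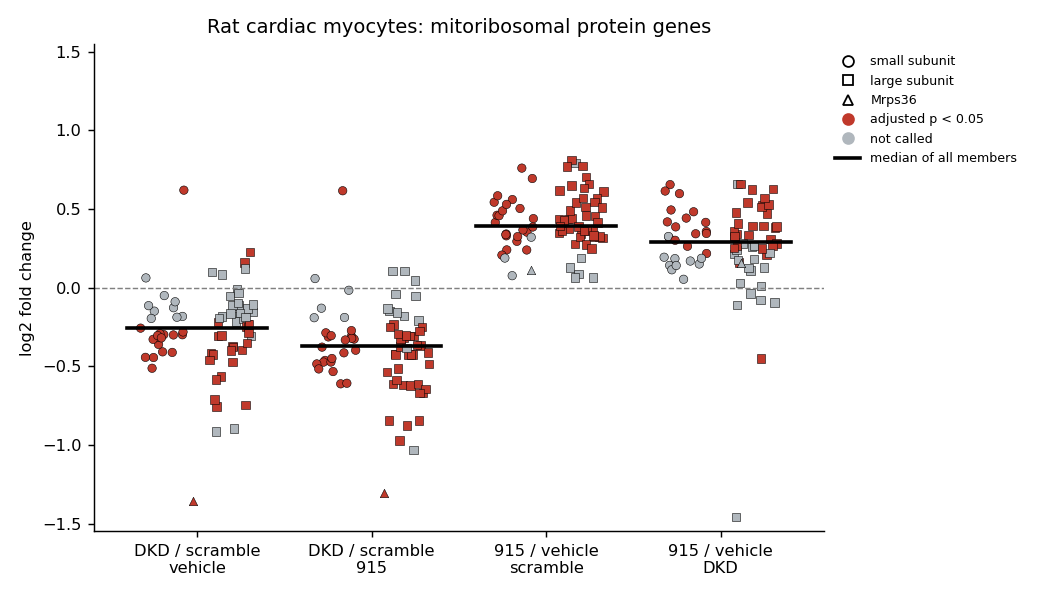
Log2 fold change of every tested rat member (vertical axis) in 4 comparisons, small-subunit genes as circles, large-subunit genes as squares and Mrps36 as a triangle; red points were called at an adjusted p of 0.05 and the bar is the median of all 76. The medians lie at −0.25 and −0.37 for the knockdown and at 0.39 and 0.29 for 915. The axis ends at 1.5, beyond which 8 uncalled points of Mrpl30, Mrpl36 and Mrpl53 lie.

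Under 915 the knockdown was set against scramble a second time, with separate libraries. Here 56 of 76 members fell and 1 rose, where 33.9% of all genes were called (17.7% lower, 16.2% higher), and the median member changed by −0.37, against 0.03 over all genes. Of the 39 members lower in vehicle, 38 were lower here too (97.4% of those 39 and 67.9% of these 56), and the exception, Mrpl27, was not called. Mrpl15 stood at 61.5, 59.2 and 66.5 CPM in DKD + 915 cells, against 123, 124 and 121 CPM in scramble + 915 cells (log2 −0.97, SE 0.06, adjusted p 1.08e-12). Mrpl47, the counterpart of bacterial L29 near the exit of the peptide tunnel, stood at 15.3, 17.5 and 18.7 CPM in DKD + 915 cells, against 29.4, 31.6 and 31.9 CPM in scramble + 915 cells (log2 −0.85, SE 0.10, adjusted p 2.6e-07). The groups did not overlap for either gene, as the naming rule required. Ranges were apart for 59 of 76 members and 44.3% of all tested genes. Mrps36 had the largest called fall (log2 −1.31, SE 0.12), followed after Mrpl15 by mrpl11 (−0.88), Mrpl47 and Mrpl40 (−0.84). Mrps6 again rose, with 81.1, 75.03 and 88.1 CPM in DKD + 915 cells, against 56.0, 52.9 and 50.5 CPM in scramble + 915 cells (log2 0.62). Mrps12 (−0.19, adjusted p 0.249) and Mrps18c (−0.02, adjusted p 0.92) were not called in either knockdown comparison. Library totals alone gave 3 higher and 35 lower, with all genes at a median of 0.16 and members at −0.24. That scaling called 6202 of all genes.

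Higher levels were found with the agonist; the comparison uses the same scramble vehicle libraries as the first. In scramble myocytes 915 raised 63 of 76 members and lowered 0, where 42.2% of all genes were called (21.5% higher, 20.6% lower); at an unadjusted p under 0.05, 65 were higher and 0 lower, where 48.9% of all genes were at that level, and DESeq2 called 64 higher and 0 lower. The median member rose by 0.39 on the log2 scale, against 0.01 over all genes, and called changes ran between 0.21 and 0.81. The summed level was 3528 ± 12.6 CPM with 915 and 2655 ± 124 CPM with vehicle. Mrpl47 (chr2:119128309-119139451) had the largest called rise, with 29.4, 31.6 and 31.9 CPM with 915, against 18.3, 16.8 and 17.9 CPM with vehicle (log2 0.81, SE 0.10, adjusted p 3.69e-07). Mrps18b (chr20:3344870-3350927), a small-subunit protein, had 85.1, 98.5 and 92.6 CPM with 915, against 54.7, 51.9 and 56.5 CPM with vehicle (log2 0.76, SE 0.06, adjusted p 8.33e-10). All 915 libraries lay above all vehicle libraries for both. Ranges were apart for 66 of 76 members and 52.9% of all tested genes. Mrpl55 (0.77), mrpl11 (0.77), Mrps18a (0.70) and Mrps12 (0.69), the counterpart of the bacterial decoding-centre protein S12, completed the 6 largest rises. Mrps36 was not called, at 37.0, 39.6 and 44.4 CPM with 915, against 43.7, 32.2 and 36.0 CPM with vehicle (log2 0.11, interval −0.12 to 0.35, adjusted p 0.455), and those values overlapped.

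With the receptors knocked down 915 still raised the members. In DKD cells 44 of 76 rose and 1 fell, where 35.7% of all genes were called (18.1% higher, 17.6% lower), with a median of 0.29 for members and 0.00 for all genes. Of the 63 members raised in scramble cells 43 were raised here (68.3% of those 63 and 97.7% of these 44). Mrps18b stood at 69.3, 67.3 and 64.1 CPM with 915, against 43.1, 43.8 and 44.1 CPM with vehicle (log2 0.61, SE 0.07, adjusted p 7.24e-08). Mrpl12 had 81.3, 77.9 and 81.97 CPM with 915, against 57.1, 57.4 and 53.1 CPM with vehicle (log2 0.52, SE 0.07, adjusted p 1.39e-06). Neither gene overlapped between the groups. Ranges were apart for 49 of 76 members and 45.6% of all tested genes. The other large rises were those of Mrps18a (0.66), Mrps11 (0.66), Mrpl23 (0.63), Mrpl21 (0.62) and Mrps34 (0.60). Mrpl49, a mitochondrion-specific large-subunit protein at a low level, fell, with 5.66, 6.76 and 10.0 CPM with 915, against 9.91, 11.6 and 9.27 CPM with vehicle (log2 −0.45, adjusted p 0.0414). Those values overlapped, and the call was lost in 4 of the 6 fits that left out 1 library of the comparison. The summed level was 2756 ± 124 CPM in DKD + 915 cells and 2247 ± 32.7 CPM in DKD vehicle cells, and both lay below the 3528 ± 12.6 CPM of scramble + 915 cells.

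**Figure D2:**
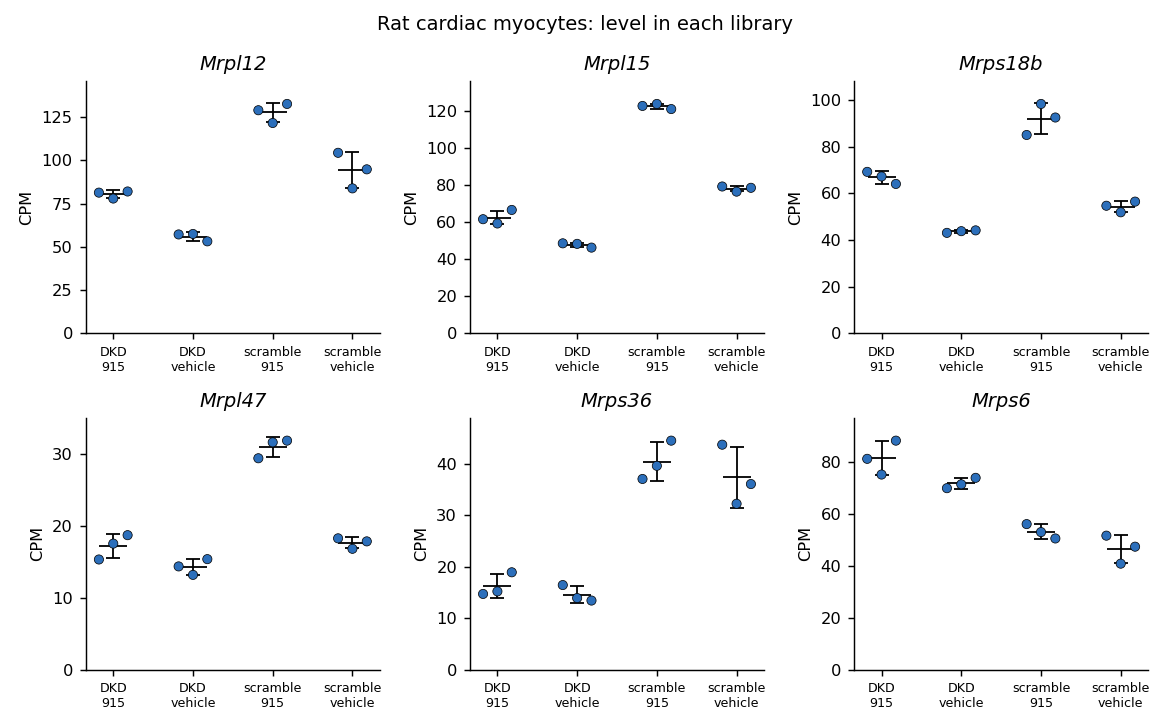
CPM (vertical axis, starting at 0) of 6 members in each rat library, as points, with the mean and SD of each group of 3 as bars. Mrpl12, Mrpl15, Mrps18b and Mrpl47 are lower in both DKD groups than in the scramble group of the same treatment and higher with 915 than with vehicle in scramble cells, whereas Mrps36 is low in both DKD groups and Mrps6 is high there.

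The difference between the effects of 915 in DKD and in scramble cells was tested directly. It was negative and called for 3 members and positive for 0, where 3.73% of all genes were called (1.99% lower, 1.74% higher). The share of members called, 3.95%, was near that of all genes. The median difference was −0.12. At an unadjusted p under 0.05 there were 12 members, all negative, where 16.3% of all genes were at that level, and DESeq2 called 4. The median difference was −0.07 without DKD + 915 replicate 1 and −0.07 without scramble vehicle replicate 2. For mrpl9, a counterpart of bacterial L9, the estimated difference was −0.38 on the log2 scale (SE 0.10, edgeR adjusted p 0.026). This gene stood at 49.4, 50.3 and 54.9 CPM in DKD + 915 cells against 43.1, 44.2 and 42.9 CPM in DKD vehicle cells. In scramble cells it stood at 53.7, 59.7 and 59.3 CPM with 915 against 37.0, 35.9 and 38.5 CPM with vehicle. For Mrpl47 the difference was −0.54 (SE 0.14, adjusted p 0.0328), with 15.3, 17.5 and 18.7 CPM in DKD + 915 cells against 14.4, 13.2 and 15.4 CPM in DKD vehicle cells. The DKD libraries with and without 915 lay close together for this gene, unlike the scramble libraries. For Mrpl18, which takes part in 5S rRNA import in human cells, the difference was −0.47 (SE 0.13, adjusted p 0.0404), with 26.3, 22.8 and 28.0 CPM in DKD + 915 cells against 26.7, 24.7 and 27.7 CPM in DKD vehicle cells, beside 33.6, 37.7 and 36.5 CPM in scramble + 915 cells against 26.1, 25.2 and 28.5 CPM in scramble vehicle cells. The call count ran between 0 and 5 when 1 library was left out: it was 0 without scramble vehicle replicate 2, scramble + 915 replicate 2 or 3, DKD vehicle replicate 1 or 3 or DKD + 915 replicate 2, it was 1 without scramble vehicle replicate 1 or DKD + 915 replicate 1, and it was 5 without DKD + 915 replicate 3. For Mrpl12 (0.09, interval −0.11 to 0.28), Mrps34 (0.01, −0.24 to 0.27) and Mrps18a (−0.05, −0.27 to 0.18) the difference was not called.

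**Figure D3:**
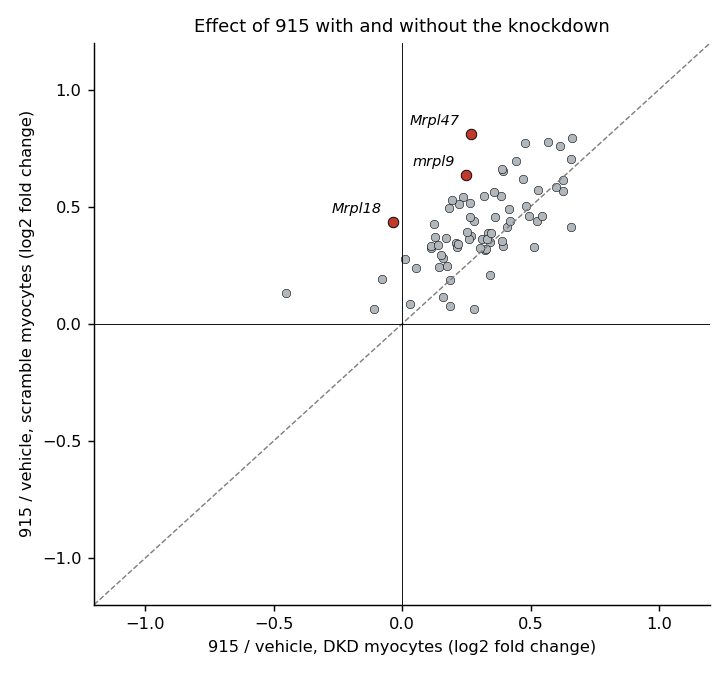
Log2 fold change with 915 in DKD myocytes (horizontal) and in scramble myocytes (vertical) for 73 members, with the line of equal change dashed; red points are mrpl9, Mrpl47 and Mrpl18, whose 2 effects differed at an adjusted p of 0.05. Above the line lie 57 of the 73 points; Mrpl30, Mrpl36 and Mrpl53 lie outside the axes of 1.2.

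In the rat, 4 members varied too widely within groups to be read. Mrpl30 ranged between 0.888 and 4.74 CPM in DKD + 915 cells, and Mrpl36 between 0.195 and 10.5 CPM in the same cells. Mrpl53 stood at 0.529, 0.262 and 11.4 CPM in scramble vehicle cells, and Mrpl1, which has a separately listed copy (LOC100359687, 1116 counts in all), between 1.81 and 9.35 CPM in DKD + 915 cells. None of the 4 was called in any rat comparison, although their estimates in comparisons of 2 groups reached −2.64 (Mrpl53 in the knockdown with vehicle) and 2.56 (Mrpl36 in the knockdown with 915). The counting was unstranded, so reads from overlapping genes cannot be told apart. Entries outside the rule were read separately. The copy LOC100359687 was at 0.27 in the knockdown with vehicle (adjusted p 0.788) and at −0.52 with 915 in DKD cells (adjusted p 0.494), neither called. Mrp63 (Mrpl57) fell by 0.31 in the knockdown with vehicle (adjusted p 0.00611) and rose by 0.56 with 915 in scramble cells, and Ict1 (Mrpl58), a peptidyl-tRNA hydrolase built into the large subunit, rose by 0.55 with 915 in scramble cells and by 0.52 in DKD cells, and was at −0.25, not called, in the knockdown with vehicle (adjusted p 0.0507). The authors' deposited table called 2 members higher and 28 lower in the knockdown with vehicle, 63 higher with 915 in scramble cells and 37 higher with 915 in DKD cells, with 0 in the opposite direction to the fit made here.

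Genes around the ribosome were counted beside it. Of 31 tested nuclear genes for complex I, the largest complex that holds mitochondrially made subunits, all 31 fell in the knockdown with vehicle (median log2 −0.60), 27 rose with 915 in scramble cells and 21 in DKD cells. Among 18 mitochondrial translation factors 6 fell and 1 rose in the knockdown with vehicle; Tufm, the elongation factor, was at −0.61, Lrpprc, which stabilises mitochondrial mRNA, at −0.65, and Rmnd1 rose by 0.44. Of 22 mitochondrial aminoacyl-tRNA synthetases and related enzymes 6 fell, and of 23 assembly factors 4 fell, with Afg3l2, a protease that matures the subunit Mrpl32, at −0.69. Of 11 genes for transcription and replication of mitochondrial DNA 5 fell in the knockdown with 915, among them Tfam and Polrmt at −0.30 each; in the knockdown with vehicle 0 were called by edgeR or DESeq2, with 2 lower at an unadjusted p under 0.05. The 85 tested cytosolic ribosomal protein genes had 2 higher and 10 lower calls in the knockdown with vehicle (median −0.06), and with 915 there were rises for 64 of 85 in scramble cells (median 0.39) and 63 of 85 in DKD cells (median 0.43). Over all genes 12.7% were lower and 7.75% higher in the knockdown with vehicle, and 17.7% were lower in the knockdown with 915. With 915, 21.5% of all genes were higher in scramble cells and 18.1% in DKD cells. The difference between the lists was not tested.

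Cell type markers moved with 915 and with the knockdown. The summed level of 8 fibroblast markers was 7894 ± 399 CPM with 915 and 14310 ± 536 CPM with vehicle in scramble cells. In DKD cells it was 9873 ± 1210.3 CPM with 915 and 13751 ± 721 CPM with vehicle. With 915, 5 of the 8 were lower and 1 higher in scramble cells, and 3 lower and 1 higher in DKD cells. Over all genes 20.6% were lower with 915 in scramble cells and 17.6% in DKD cells. Most of the sum came from Col1a1 (4243 to 9513 CPM over the rat libraries) and Col3a1 (1586 to 3311 CPM). The 7 smooth muscle and pericyte markers summed to 1798 ± 206 CPM with 915 and 4673 ± 122 CPM with vehicle in scramble cells (5 lower, 1 higher). Cardiomyocyte markers summed to 7986 ± 149 CPM in DKD vehicle cells and 10419 ± 589 CPM in scramble vehicle cells (3 of 7 lower, 1 higher), and to 7319 ± 876 CPM in DKD + 915 cells and 11533 ± 449 CPM in scramble + 915 cells (6 of 7 lower). In the knockdown with 915, 4 of 8 fibroblast, 5 of 7 smooth muscle and pericyte and 5 of 6 leukocyte markers rose. Over all genes 16.2% were higher there. Of 5 endothelial markers 2 rose in each knockdown comparison, and 0 of 7 cycling-cell markers were called in either. With 915, 1 endothelial marker was higher in scramble cells, and 3 were higher and 1 lower in DKD cells. Cycling-cell markers had 3 lower calls with 915 in scramble cells and 1 in DKD cells. Leukocyte markers summed to 63.2 ± 2.02 CPM in DKD vehicle cells and 38.8 ± 1.57 CPM in scramble vehicle cells, and 3 of 6 rose. The part of these shifts in the members' changes was not tested.

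In mouse hearts pressure overload lowered a smaller number of members. With vehicle, 17 of 78 tested members were lower and 2 higher after TAC than after sham surgery, where 26.4% of 14047 tested genes were called (12.8% lower, 13.5% higher). The share of members called, 24.4%, was near that background, while the median member changed by −0.13, against −0.01 over all genes. Scaling by library totals alone gave 10 lower and 3 higher, with the median member at −0.03 and all genes at 0.10. That scaling called 3791 of all genes. The falls were in 12 of 51 large-subunit and 5 of 26 small-subunit genes. Since the summed level depends on the set, it was read in the first set, where it was 2525 to 2695 CPM in TAC + vehicle hearts and 2860 to 2897 CPM in Sham + vehicle hearts. Without a term for the set 5 members were called (1 higher, 4 lower), where 2720 of all genes were. In the first set alone 15 members were called (1 higher, 14 lower), where 3092 of all genes were.

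Mrpl39, a mitochondrion-specific large-subunit protein, stood at 42.7, 36.0, 40.8, 41.2 and 35.4 CPM in TAC + vehicle hearts, against 56.2, 56.3 and 51.2 CPM in Sham + vehicle hearts (log2 −0.50, SE 0.09, adjusted p 0.000347). Every TAC heart lay below every sham heart. Mrps35, a small-subunit protein specific to mitochondria, stood at 45.6, 36.0, 41.1, 54.6 and 47.1 CPM in TAC + vehicle hearts, against 56.9, 59.6 and 57.6 CPM in Sham + vehicle hearts (log2 −0.51, SE 0.09, adjusted p 0.000329). The ranges did not overlap, although the fit without the set term gave −0.37 with an adjusted p of 0.0721. Mrps31, specific to the mitochondrial small subunit, had 22.1, 23.5, 22.6, 27.7 and 23.7 CPM in TAC + vehicle hearts, against 30.7, 31.0 and 31.7 CPM in Sham + vehicle hearts (log2 −0.44, SE 0.08, adjusted p 0.000672). Mrpl47 fell by 0.40, Mrpl14, the counterpart of bacterial L14, by 0.48 and Mrpl42 by 0.38, all without overlap, as the naming rule required. Mrpl14 and Mrpl42 lost their calls without the set term. Ranges were apart for 16 of 78 members and 27.9% of all tested genes. The lowest estimate was that of Mrpl23, which lies at the exit of the peptide tunnel, named here after its value was seen: it had 20.7, 20.7, 21.8, 34.9 and 27.5 CPM in TAC + vehicle hearts, against 33.0, 29.8 and 31.0 CPM in Sham + vehicle hearts (log2 −0.59, SE 0.10, adjusted p 0.000286), so that the first-set hearts were lower and 1 second-set heart was above all sham hearts.

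Mrps23, a mitochondrion-specific small-subunit protein, rose, with 107, 113, 121, 136 and 131 CPM in TAC + vehicle hearts, against 91.9, 94.8 and 95.4 CPM in Sham + vehicle hearts (log2 0.28, SE 0.08, adjusted p 0.00943), and the groups did not overlap. Mrps2 rose by 0.22 (adjusted p 0.0388) with ranges that overlapped, and lost its call in 6 of the 8 fits that left out 1 library of the comparison. Mrpl58, the hydrolase, fell by 0.36 (edgeR adjusted p 0.00842) with ranges that overlapped. It lost its call in the edgeR fits without the set term (−0.19, adjusted p 0.444) and under library totals alone (adjusted p 0.0516). Of the other members named by rule, Mrps18b (0.24, adjusted p 0.0674), Mrps36 (−0.22, adjusted p 0.0885) and Mrps30 (−0.18, adjusted p 0.0781) were not called, and Mrpl12 was at −0.01 (interval −0.20 to 0.17).

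**Figure D4:**
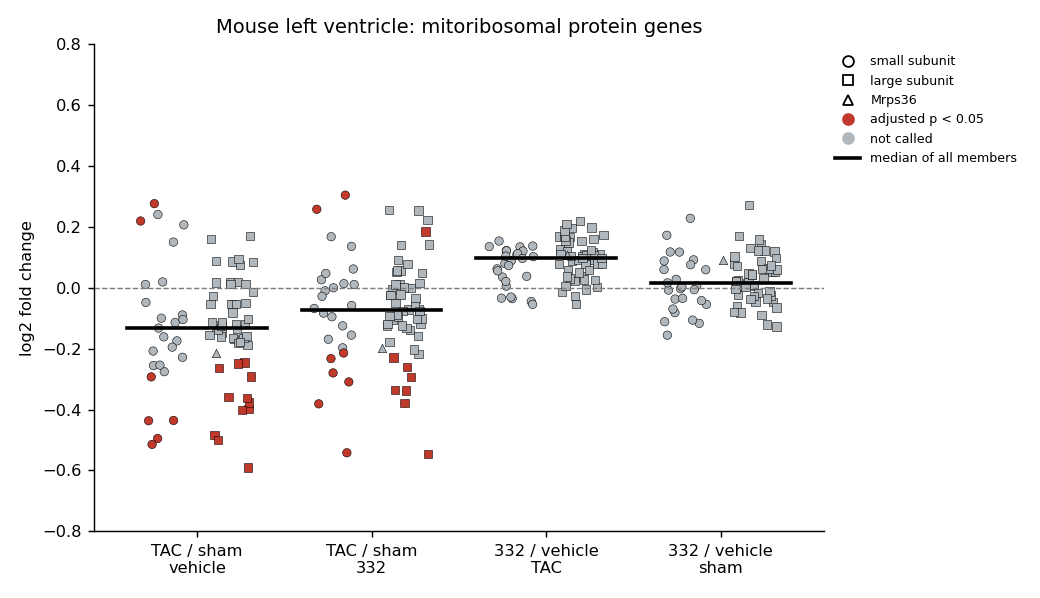
Log2 fold change of all 78 mouse members (vertical axis) in 4 comparisons, with symbols and colours as in the plot of rat changes and the median of all members as a bar. The medians are −0.13 and −0.07 for TAC over sham and 0.10 and 0.02 for 332 over vehicle, where no point was called.

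In mice given 332 the TAC comparison, made on separate hearts, called 13 members lower and 3 higher. Over all genes 23.8% were called (12.1% lower, 11.8% higher), and the share of members called, 20.5%, was below that. The median was −0.07 for members (−0.04 without TAC + 332 replicate 1) and 0.00 for all genes. Of the 17 members lower with vehicle, 11 were lower here (64.7% of those 17 and 84.6% of these 13). Scaling by library totals alone turned the split round, to 15 higher and 4 lower, with all genes at a median of 0.15 and members at 0.08. That scaling called 4495 of all genes. Mrpl39 stood at 35.6, 40.9, 37.3, 35.2 and 45.1 CPM in TAC + 332 hearts, against 52.2, 52.2, 58.0, 60.3 and 61.2 CPM in Sham + 332 hearts (log2 −0.55, SE 0.07, adjusted p 3.47e-05). Mrps31 had 22.9, 23.4, 25.3, 21.8 and 27.7 CPM in TAC + 332 hearts, against 30.0, 28.5, 31.9, 33.6 and 34.02 CPM in Sham + 332 hearts (log2 −0.38, SE 0.07, adjusted p 0.000533). All TAC hearts lay below all sham hearts for both genes. Ranges were apart for 4 of 78 members and 11.1% of all tested genes. Mrpl47 (−0.34) and Mrpl50 (−0.26), a mitochondrion-specific large-subunit protein, fell likewise. Mrps23 rose again, with 115, 104, 137, 141 and 133 CPM in TAC + 332 hearts, against 95.6, 94.9, 96.4, 115 and 109 CPM in Sham + 332 hearts (log2 0.30, SE 0.06, adjusted p 0.00126). Within each set all TAC hearts lay above all sham hearts. Mrps18b rose by 0.26 (adjusted p 0.0199) and Mrpl43 by 0.18 (adjusted p 0.04999), both with overlapping ranges; Mrpl43 was not called by DESeq2 (adjusted p 0.0656), and Mrps18b not in the first set alone (adjusted p 0.357). In the first set alone 8 members were called (1 higher, 7 lower), where 1662 of all genes were. In the second set alone, with 2 hearts a group, 0 members were called, where 52 of all genes were.

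The agonist 332 called no member in either surgery group. In TAC hearts, 332 against vehicle gave 0 called members in edgeR and 0 in DESeq2, where 0.427% of all genes were called; 9 members had an unadjusted p under 0.05, all higher with 332, as did 12.7% of all genes in either direction. The smallest adjusted p was 0.201, for Mrpl24 (log2 0.17, interval 0.05 to 0.29). Estimates were positive for 69 and negative for 9 of 78, with a median of 0.10, against 0.01 over all genes; the median was 0.04 without TAC + 332 replicate 3 and 0.06 without TAC + 332 replicate 5. The 95% intervals of single members spanned −0.24 to 0.41. Mrpl12 had 81.1, 89.8, 115, 117 and 134 CPM in TAC + 332 hearts, against 91.7, 85.8, 96.2, 112 and 119 CPM in TAC + vehicle hearts (log2 0.09, interval −0.07 to 0.24), and the groups overlapped. Mrps36 (0.11), Mrps12 (0.15) and Mrpl58 (0.21, adjusted p 0.255) were higher in estimate and not called. In sham hearts, 332 against vehicle gave 0 called members in edgeR and 0 in DESeq2, where 0.00712% of all genes were called. In that comparison 2 had an unadjusted p under 0.05, as did 4.88% of all genes. The smallest adjusted p was 0.841, the median was 0.02 (−0.01 to 0.03 when each heart was left out) and the intervals spanned −0.40 to 0.49. The effect of 332 in TAC minus that in sham hearts gave 0 called members in edgeR (0.0641% of all genes were called, 0.0214% higher and 0.0427% lower), 0 at an unadjusted p under 0.05, where 10.0% of all genes were, and 0 in DESeq2, with a median of 0.06 (0.04 to 0.10 when each heart was left out) and intervals between −0.53 and 0.54. The agonists, species, doses and times of the rat and mouse experiments differ, and no comparison was made between them.

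**Figure D5:**
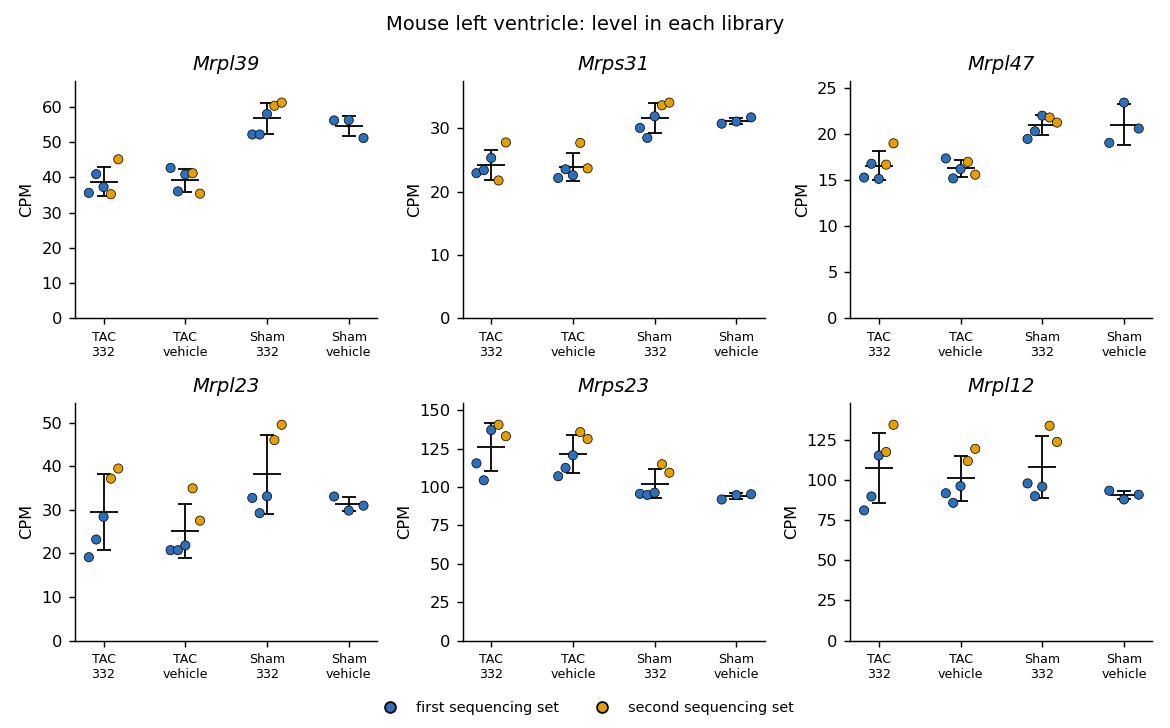
CPM (vertical axis, starting at 0) of 6 members in each mouse library, coloured by sequencing set, with the mean and SD of each group (5, 5, 5 and 3 hearts). Mrpl39, Mrps31 and Mrpl47 are lower in both TAC groups than in both sham groups, Mrps23 is higher, and for Mrpl23 and Mrpl12 the second set lies above most of the first within a group.

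Other gene groups in the hearts were counted in the same fits. Over all genes 12.8% were lower and 13.5% higher after TAC with vehicle, and 12.1% lower and 11.8% higher with 332. Of 38 complex I genes 33 fell after TAC with vehicle (median −0.37) and 25 with 332 (−0.24), and none rose. Of 81 cytosolic ribosomal protein genes 21 fell and 0 rose after TAC with vehicle, and 4 fell and 4 rose with 332. Among 28 assembly factors 2 fell and 1 rose after TAC with vehicle: Mrm1, an rRNA methyltransferase, fell by 0.56 and rose with 332 in TAC hearts by 0.41 (adjusted p 0.037). Of 20 translation factors 3 fell with vehicle and 2 with 332, Rmnd1 in both (−0.36 and −0.40). Of 14 genes for mitochondrial DNA upkeep 3 fell in the 332 comparison, with Mgme1, a nuclease, at −0.73, and with vehicle 0 were called by edgeR or DESeq2 (3 lower at an unadjusted p under 0.05). Esrra (−0.21) and Ppargc1a (−0.64) fell after TAC in the 332 comparison and were not called with vehicle. Fibroblast markers summed to 1595 ± 403 CPM in TAC + vehicle hearts and 594 ± 47.5 CPM in Sham + vehicle hearts, and 7 of 8 rose. In the first set alone the fibroblast sum was 1180 to 2104 CPM in TAC + vehicle hearts and 540.2 to 630.3 CPM in Sham + vehicle hearts. Cardiomyocyte markers (3 of 8 higher, 4 lower) summed to 36205 to 39321 CPM in TAC + vehicle hearts and 44078 to 46927 CPM in Sham + vehicle hearts of the first set, and to 44221 and 44366 CPM in the TAC + vehicle hearts of the second. Myh6 was the largest part of the cardiomyocyte sum (17264 to 34795 CPM over the mouse libraries), and Nppa ran from 25.4 to 3233 CPM. The part of the markers in the members' falls was not tested.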

How the data were processed

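The members, gene lists and tests were chosen with earlier results of these data known. Rat values are counts per gene from a table the authors deposited. For it the submitters' processing notes name the build rn6 and the tools DESeq2 1.20.0, featureCounts 1.5.0-p3, HISAT2 2.0.5 and StringTie 1.3.3b. The deposited table's FPKM columns gave levels per length, and its log2 fold changes and p-values are the authors' own, as deposited. Mouse values are expected counts and TPM per transcript in deposited Salmon tables; reads passed fastp, per the submitters' processing notes, and versions and build are not given in the sources used here. Counts of all transcripts were summed per gene and rounded (7.43% of sums were not whole), with 79.9 to 82.2% of each library's member counts on protein-coding transcripts. A gene counted as protein-coding if any of its transcripts did.

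Genes passing edgeR's filterByExpr (minimum count 10) were scaled by TMM and tested with the robust quasi-likelihood test of edgeR 4.0.16 in R 4.3.3, all libraries of a species in 1 fit, with Benjamini-Hochberg adjustment over all tested genes (15181 rat, 14047 mouse) and a threshold of 0.05. The mouse fit had a term for sequencing set. CPM are counts scaled to 1000000 by the TMM-scaled library size. All 78 mouse members passed the filter, and 76 rat members did; the 2 rat entries left out held no count. Intervals are 95%. Named were up to 6 called rises and falls that averaged 5 CPM or more and had ranges that did not overlap (4 for differences), 12 fixed members, called members against the majority, and up to 4 called genes per pathway list. The scripts were tested on simulated data. Alternatives were RLE size factors, library totals, other count filters, DESeq2 1.42.0, only the groups compared, a replicate block, the sequencing sets and leaving out each library. Same-numbered libraries did not deviate together.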

Additional observations from a re-analysis of the deposited data

Results flagged for a closer look

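In TAC + vehicle hearts Mrps31 had 27.7 CPM in replicate 4, against 22.1 to 23.7 CPM in the other 4, which was far from the others for a group of 5 (gap over range 0.725, critical value 0.71). That library belongs to the second sequencing set. Chance flags about 1 in 20 groups, and 69 groups of members were examined with 1 flag.

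The effect of 915 differed between DKD and scramble myocytes for mrpl9 (−0.38, DKD minus scramble, log2), Mrpl47 (−0.54) and Mrpl18 (−0.47), by edgeR's test of the difference with adjusted p-values of 0.026, 0.0328 and 0.0404. No other member passed, and 3.95% of members and 3.73% of all genes were called for this difference. Of the 12 fits that left out 1 library, mrpl9 lost its call in 9, Mrpl47 in 8 and Mrpl18 in 7. Mrpl18 also lost its call under library totals alone (edgeR adjusted p 0.0531).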

How the results depend on the processing

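Named members kept the direction of their calls under every alternative run: of 2752 values recomputed for named members, 2628 stayed on the same side of the threshold, 116 lost their call, 8 gained one and 0 reversed. Many named members were chosen as called members without overlap, and the fixed members were never called for 332. The share that stayed therefore does not measure the stability of the members at large. Members called in the knockdown with vehicle numbered 22 under library totals alone (4206 of all genes) and 22 to 37 when 1 library was left out. With 1 library left out the counts ran from 50 to 57 for the knockdown with 915, 57 to 63 for 915 in scramble cells, 38 to 42 for 915 in DKD cells, 0 to 5 for their difference, 15 to 17 for TAC with vehicle, 11 to 21 for TAC with 332, and stayed 0 for 332. TAC with vehicle gave 5 without the set term, where 2720 of all genes were called. TAC with 332 gave 7 without it (2208 of all genes), 8 in the first set (1662) and 0 in the second (52). The second set has 2 hearts a group. Library totals alone turned the split for TAC with 332 to 15 higher and 4 lower, against 3 and 13; the cause was not tested. DESeq2 gave 41, 58, 64, 47 and 4 calls in the 5 rat comparisons and 18 and 15 for TAC.

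Replicate numbers did not pair the samples (correlations of deviations −0.05 to 0.04 in 12 rat pairs and −0.32 to 0.02 in 16 mouse pairs; 5 of 12 and 1 of 16 libraries correlated best with their own number). With a replicate block the rat counts were 39 (3 higher, 36 lower) in the knockdown with vehicle, 58 with 915, 65 for 915 in scramble cells, 45 in DKD cells and 4 for the difference, and the mouse counts 17 and 15 for TAC and 0 for 332. With protein-coding transcripts only, an alternative chosen after seeing the data like the removal of mitochondrially encoded genes, TAC gave 18 and 15 calls; the removal gave 43, 57, 63, 45 and 3 in the rat and 19 and 16 for TAC. The shallowest rat library held 12013379 counts, and members averaging under 5 CPM, whose counts are few, were not named as rises or falls.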
